A study of Mus musculus with 8 samples.

Results

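The genes examined here mark successive stages of bone formation and were measured in RNA from mouse knee joints. They are the regulators Runx2 and Sp7, the hypertrophic cartilage collagen Col10a1, the osteoblast matrix genes Ibsp, Bglap and Bglap2, and the osteocyte genes Dmp1, Phex, Mepe and Sost. The members were chosen by name, with earlier results of these data known, and each of the 10 names occurred once among the 20681 rows of the table. Poly-A RNA was sequenced from 8 knee joints, 4 carrying the label control and 4 the label knockout. The targeted gene, Loxl2, encodes lysyl oxidase-like 2, an enzyme that crosslinks collagen. The series describes all 8 joints as coming from mice with Acan-Cre and floxed Loxl2 alleles (Acan-Cre;Loxl2 fl/fl), in which Cre is driven by the aggrecan gene of cartilage cells. The library names of the controls read Vehicle, DMM and LOXL2wt, and those of the other group read KO, DMM and LOXL2ko. DMM is not spelled out in the labels and usually stands for surgical destabilisation of the medial meniscus. The controls are described as treated with vehicle, so any agent that the other mice received is part of the contrast. Age, sex, the time after surgery and whether joints were pooled are not given in the sources used here.

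Bone is laid down by osteoblasts, whose fate is set by RUNX2 and then by SP7 (osterix), a factor that acts downstream of RUNX2. Mature osteoblasts secrete bone sialoprotein and osteocalcin into the matrix, and some are buried in it and become osteocytes, which regulate phosphate and mineral through DMP1, PHEX and MEPE and restrain further formation through sclerostin, the product of Sost. Type X collagen, from Col10a1, marks the hypertrophic chondrocytes that precede bone in a growth plate or a bony outgrowth. In an injured knee the bone under the cartilage and new bone at the joint margin are the usual sites of this programme.

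The libraries held 13991000 to 17411617 recovered reads. Loxl2 was measured first as a check of the labels, and its normalised read count was 282, 349, 1135 and 311 in the controls (replicates 1 to 4) and 893, 1468, 960.3 and 1518 in the libraries labelled knockout (replicates 1 to 4). The means were 519 ± 411 and 1209.9 ± 329 (SD, n = 4; log2 difference 1.44, limma adjusted p = 0.0294). The call was lost in 8 of 17 alternatives, among them edgeR (adjusted p = 0.0669), DESeq2 (0.0659), the replicate block (0.0513) and 5 of the 8 removals of 1 library (limma adjusted p up to 0.0849), and the difference stayed above 0 in all 17, from 1.23 to 1.91. The mean of the targeted transcript was thus not lower under the knockout label; which exons are floxed is not given in the sources used here. The check did not bear out the label. In bulk joint tissue it cannot show whether Loxl2 was lost in cartilage cells, where Cre is driven. Each group is therefore named by its label only. Markers of the tissues of a joint were present in every group. The 12 skeletal muscle genes made up 13.7% to 14.1% of the summed values of the control libraries and 8.26% to 10.8% of those labelled knockout, while the 10 stage genes made up 0.00372% to 0.0387% and 0.0362% to 0.0835%. Since the samples are bulk tissue, fewer cells of a type and less RNA per cell cannot be told apart. Nothing in the labels says that the joints came from separate animals, so p-values measure the spread between these samples.

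All 10 stage genes had a log2 difference above 0 in the libraries labelled knockout, with a median of 1.62, against a median of 0.00 and 50.1% above 0 over the 14949 genes tested. Phex turned below 0 with edgeR (-0.24), with DESeq2 (-0.24) and without control replicate 2 (-0.10). The members were chosen with earlier results of these data known. After group means were subtracted, all 45 pairs of members had a Pearson's r above 0 (median 0.786). The 10 differences are thus not independent, and their count above 0 gets no test. Runx2, Sp7 and Ibsp rose by the limma test (adjusted p under 0.05), and the other 7 did not pass it. Across all genes tested, 11.6% were called higher and 23.2% were called in either direction, so the 3 of 10 called stand beside the first of these shares. In 1 of 10 members, Runx2, every library labelled knockout lay above every control library, against 11.7% of all genes tested. The count changed with single libraries. Without control replicate 1 the limma test called 7 of 10 members higher, against 10.4% of all genes. Without control replicate 4, knockout replicate 1 or knockout replicate 4 it called 0, against 7.72%, 8.05% and 5.56% of all genes. In these fits 3, 3 and 4 members had an unadjusted limma p under 0.05, as did 5018, 5162 and 4647 of all 14949 genes. The limma test called 1 without control replicate 2 and 1 without knockout replicate 3, against 6.52% and 12.3%. With all libraries edgeR and DESeq2 each called 1 of 10 higher, against 11.3% and 14.3%.

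**Figure D1:**
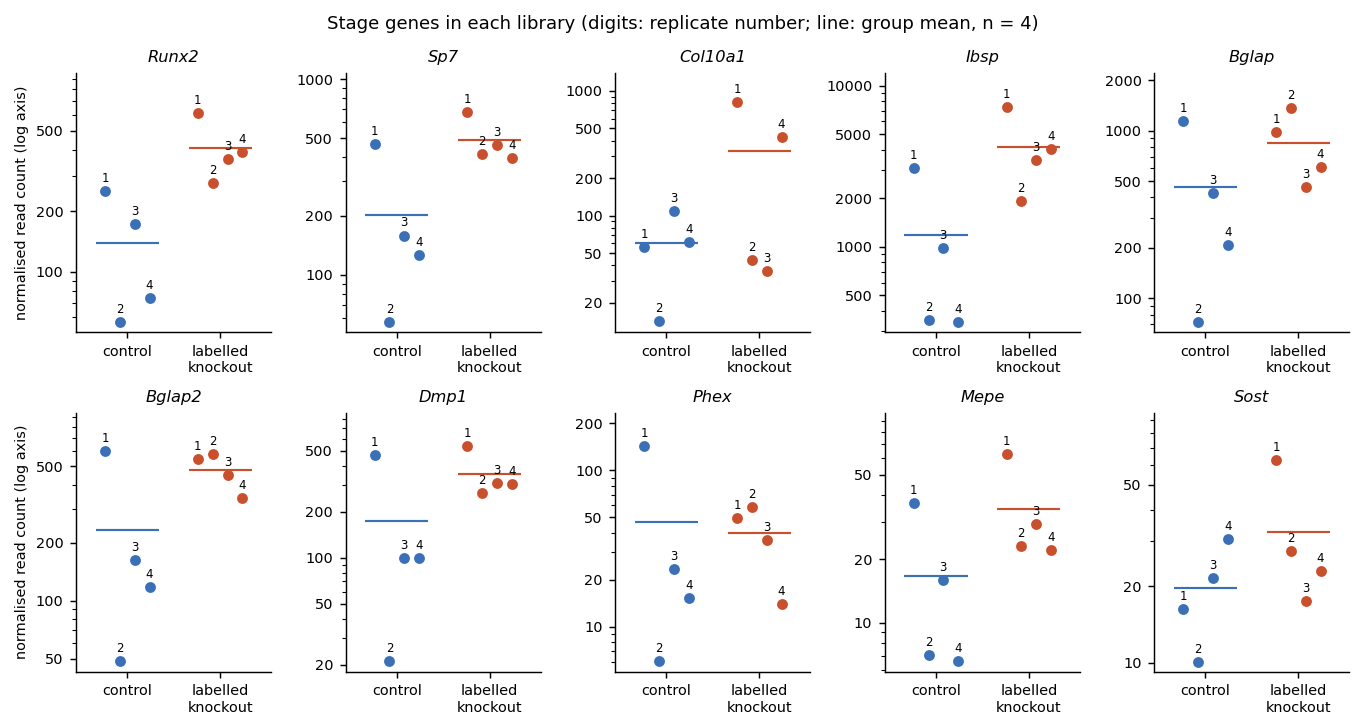
Normalised read count of each of the 10 stage genes in the 8 libraries, on a log axis; each point is 1 library with its replicate number beside it, and the line is the group mean (n = 4). Control replicate 1 sits above the other controls for 8 of the 10 genes and among or near the libraries labelled knockout, and control replicate 2 is the lowest control for 8 of 10.

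The libraries of a group were uneven. Control replicate 1 was the highest control for 8 of the 10 genes, the exceptions being Col10a1 and Sost, and control replicate 2 was the lowest for 8, the exceptions being Ibsp and Mepe. Among the libraries labelled knockout, replicate 1 was the highest for 7. The highest control exceeded the lowest by 22.2-fold for Dmp1 and 23.6-fold for Phex, and by 4.44-fold for Runx2. In the group labelled knockout the same ratio was 2.03 for Dmp1, 4.13 for Phex and 2.22 for Runx2. Col10a1 and Sost were the other way round, with 7.67 and 3.04 in controls and 22.5 and 3.61 under the knockout label. The summed value of the 10 genes was 6255, 645, 2172 and 1082 in the controls (replicates 1 to 4) and 11645, 4954, 5640 and 6558 in the libraries labelled knockout (replicates 1 to 4).

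**Figure D2:**
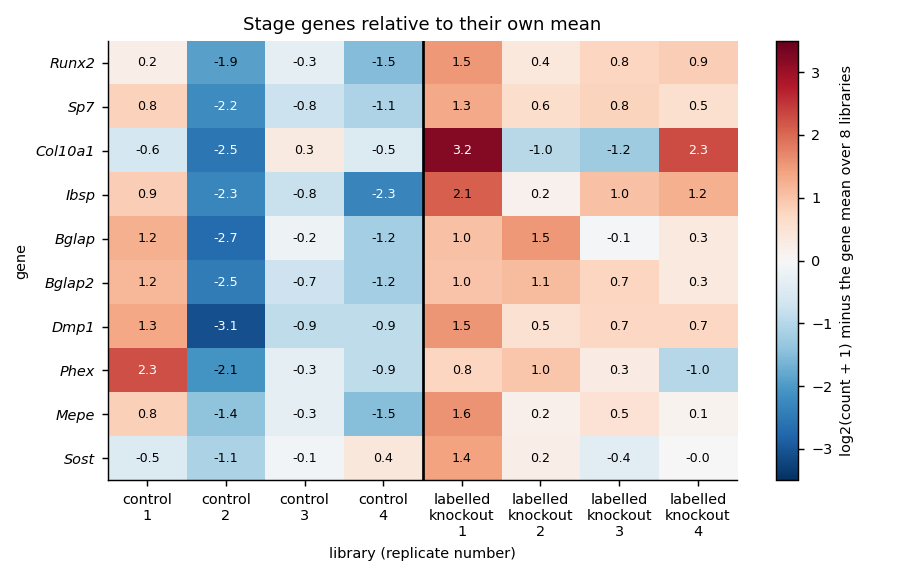
Heat map of log2(count + 1) for each stage gene (rows) in each library (columns) after subtraction of the gene's mean over the 8 libraries; red is above and blue below that mean, and the line parts the groups. Control replicate 1 is above the mean for 8 of 10 genes, and Col10a1 differs most between libraries of the group labelled knockout.

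Runx2 encodes the transcription factor that commits cells to the osteoblast fate and also drives chondrocyte hypertrophy. It lies on chromosome 17 from 44495987 to 44814797 (minus strand, mm10), where Supt3 and 3 annotated antisense genes lie on the opposite strand; whether strand was used in counting is not given, so reads of these genes may be mixed. Its normalised read count was 251, 56.5, 172 and 74.5 in the controls (replicates 1 to 4) and 610.4, 275, 362 and 393 in the libraries labelled knockout (replicates 1 to 4). The groups did not overlap, with the lowest library labelled knockout just above control replicate 1. The mean rose from 138 ± 90.5 to 410.3 ± 142 (SD, n = 4), or 1.75 ± 0.44 on the log2 scale (difference ± SE, limma adjusted p = 0.0206). An exact two-sided permutation test gave p = 0.0286, the smallest that 4 libraries against 4 allow. Leaving out control replicate 4 ended the limma call (adjusted p = 0.0550), as did leaving out knockout replicate 1 (0.0537) or 4 (0.0558), whereas edgeR (adjusted p = 0.0306) and DESeq2 (adjusted p = 0.00132) kept it.

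Sp7 encodes osterix, the zinc finger factor required for osteoblast differentiation after RUNX2, on chromosome 15 from 102356606 to 102367182 (minus strand) with no overlapping gene in the annotation. Its counts were 468, 57.5, 159 and 126 in the controls (replicates 1 to 4) and 676, 415, 462 and 395 in the libraries labelled knockout (replicates 1 to 4). Of the controls, replicate 1 exceeded all but 1 library labelled knockout, and the other controls lay below all of them. The mean rose from 203 ± 182 to 487 ± 129, or 1.63 ± 0.51 on the log2 scale (difference ± SE, limma adjusted p = 0.0436, exact permutation p = 0.114). The call was lost by edgeR, by DESeq2 (adjusted p = 0.116), under quantile normalisation (adjusted p = 0.0529) and when any single library except control replicate 1 was removed. Without control replicate 1 the difference was 2.17 (limma adjusted p = 0.00811). The ratio of Runx2 to Sp7 within a library was 0.798 ± 0.275 in controls and 0.836 ± 0.144 in libraries labelled knockout (SD, n = 4), a difference smaller than the spread.

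Col10a1 encodes the type X collagen chain of hypertrophic cartilage and lies on chromosome 10 from 34389981 to 34397085, inside Nt5dc1 on the opposite strand. As for Runx2, reads of the overlapping gene may be mixed with those of Col10a1. Its counts were 56.2, 14.1, 108 and 61.3 in the controls (replicates 1 to 4) and 809, 43.6, 35.9 and 424 in the libraries labelled knockout (replicates 1 to 4). The libraries labelled knockout fell apart, with replicates 1 and 4 above every control and replicates 2 and 3 within the control range. The mean was 60.0 ± 38.6 in controls and 328 ± 368 under the knockout label, and the difference was not significant (log2 difference 1.65, SE 1.01, limma adjusted p = 0.257, exact permutation p = 0.314). Relative to Runx2 in the same library it was 0.224 to 0.824 in controls and 0.0991 to 1.33 in libraries labelled knockout. No fit among the 17 alternatives called Col10a1, and its difference was 0.85 without knockout replicate 1.

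Ibsp encodes bone sialoprotein, an acidic matrix protein of osteoblasts and of hypertrophic cartilage that nucleates mineral. It lies on chromosome 5 from 104299171 to 104311469 (plus strand). Its counts were 3076, 351, 984 and 343 in the controls (replicates 1 to 4) and 7314, 1911, 3476 and 4035 in the libraries labelled knockout (replicates 1 to 4). Only control replicate 1 reached the range of the other group, where it lay above knockout replicate 2. The mean rose from 1189 ± 1294 to 4184 ± 2272, or 2.27 ± 0.66 on the log2 scale (difference ± SE, limma adjusted p = 0.0351, exact permutation p = 0.0571). Of all tested genes, 0.569% had a larger difference. Without control replicate 1 the difference was 2.93 (limma adjusted p = 0.00908), and the call was lost by edgeR (adjusted p = 0.0879), by DESeq2 (adjusted p = 0.0775) and without any of control replicates 2 or 4 and knockout replicates 1, 3 or 4, where the limma adjusted p lay between 0.0534 and 0.0960.

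Bglap and Bglap2 encode osteocalcin, the vitamin K-dependent protein of mature osteoblasts, and are neighbouring copies on the minus strand of chromosome 3, at 88383501 to 88384464 and 88377736 to 88378699. Their coding sequences are shown because reads of these genes are hard to assign to one copy. They differ at 4 of 288 bases (98.6% identical), 3 of them changing the amino acid, and the longest identical run is 241 bases; capitals mark the bases that differ (GENCODE release M21 transcripts, 5′ to 3′).
Bglap: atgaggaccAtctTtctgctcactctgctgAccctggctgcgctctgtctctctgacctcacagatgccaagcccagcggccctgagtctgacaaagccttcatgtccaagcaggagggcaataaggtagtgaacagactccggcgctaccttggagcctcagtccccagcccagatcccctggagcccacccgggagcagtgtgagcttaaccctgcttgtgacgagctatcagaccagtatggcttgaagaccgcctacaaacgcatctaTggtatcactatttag
Bglap2: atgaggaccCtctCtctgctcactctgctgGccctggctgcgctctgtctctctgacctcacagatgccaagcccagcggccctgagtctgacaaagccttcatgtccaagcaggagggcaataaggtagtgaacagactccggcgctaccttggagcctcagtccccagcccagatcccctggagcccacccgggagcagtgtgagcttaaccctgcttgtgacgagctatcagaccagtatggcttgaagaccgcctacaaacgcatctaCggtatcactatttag

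Of all 50-base windows of the annotated Bglap messenger RNA, 74.7% occur unchanged in that of Bglap2, and 20.5% in one of Bglap3, the third copy. The read length and the handling of reads that match several places are not given in the sources used here, so the split between the copies is uncertain and their sum is given too. Bglap had counts of 1137, 72.7, 426 and 207 in the controls (replicates 1 to 4) and 976, 1357, 460.0 and 605 in the libraries labelled knockout (replicates 1 to 4). For Bglap2 they were 600.3, 48.5, 163 and 118 in controls and 544, 577, 452 and 342 under the knockout label. In both genes control replicate 1 lay within or above the range of the libraries labelled knockout and the other 3 controls lay below it. Neither difference passed the test with all libraries (Bglap log2 difference 1.41, SE 0.71, limma adjusted p = 0.171, exact permutation p = 0.171; Bglap2 1.60, SE 0.60, limma adjusted p = 0.0798, exact permutation p = 0.143). Without control replicate 1 both were called, at 2.06 (limma adjusted p = 0.0345) and 2.25 (limma adjusted p = 0.00921). Without control replicate 2, the lowest control for both, the differences were 0.74 and 1.05 (limma adjusted p = 0.385 and 0.172). The sum of the pair was 693 ± 722 in controls and 1329 ± 491 in libraries labelled knockout. Bglap held 65.4 ± 5.20% of that sum in controls and 62.2 ± 8.35% under the knockout label (SD, n = 4), so the share of each copy differed by less than its spread. Bglap3 was too low to test, with at most 3.24 in a control and 9.41 in a library labelled knockout.

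Among the osteoblast matrix genes the balance between bone sialoprotein and osteocalcin varied by library. Ibsp divided by the sum of Bglap and Bglap2 was 1.77, 2.90, 1.67 and 1.05 in the controls (replicates 1 to 4) and 4.81, 0.988, 3.81 and 4.26 in the libraries labelled knockout (replicates 1 to 4). Knockout replicate 2 was the lowest of all 8 libraries on this ratio and had the highest osteocalcin sum, 1935, while the other 3 libraries labelled knockout lay above every control.

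**Figure D3:**
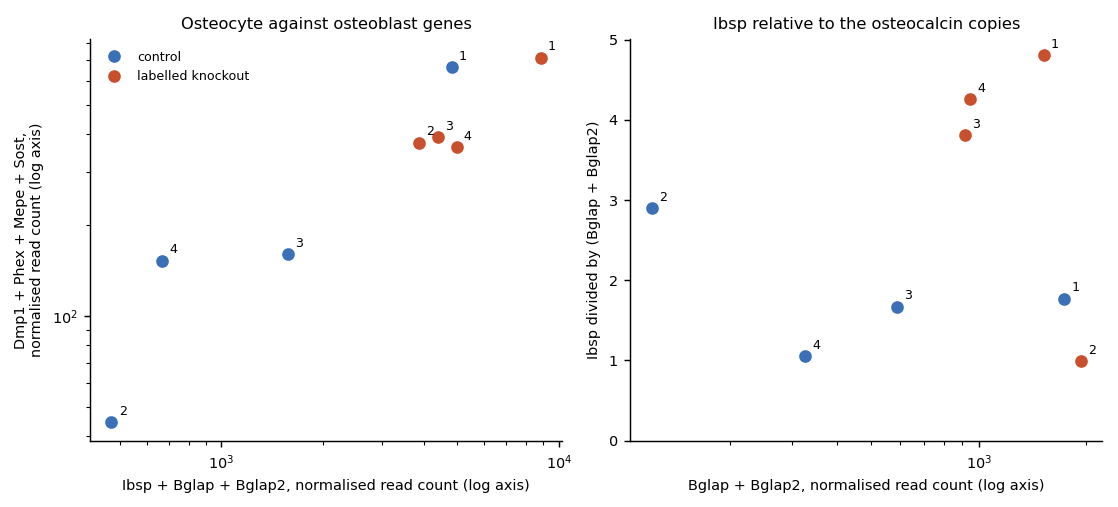
Left, summed normalised read count of the osteocyte genes against that of the osteoblast matrix genes, both on log axes; right, Ibsp divided by the sum of Bglap and Bglap2 against that sum on a log axis. Each point is 1 library with its replicate number, and control replicate 1 lies with the libraries labelled knockout on the left, while knockout replicate 2 stands lowest on the right at 0.988.

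None of the 4 osteocyte genes was called with all libraries. Dmp1, whose product directs mineral deposition around osteocytes, lies on chromosome 5 from 104202613 to 104214102. Its counts were 470.5, 21.2, 99.1 and 99.7 in the controls (replicates 1 to 4) and 539.5, 266, 309 and 304 in the libraries labelled knockout (replicates 1 to 4). Control replicate 1 exceeded 3 of the 4 libraries labelled knockout, and the other controls lay well below them. The means were 173 ± 202 and 354.5 ± 125 (log2 difference 1.75, SE 0.73, limma adjusted p = 0.106, exact permutation p = 0.114), and without control replicate 1 the difference was 2.49 (limma adjusted p = 0.0152). Without control replicate 2 it was 1.02 (limma adjusted p = 0.211).

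Mepe encodes a matrix phosphoglycoprotein of osteocytes and lies at 104325329 to 104338611 of chromosome 5. Its counts were 36.8, 7.07, 15.9 and 6.57 in the controls (replicates 1 to 4) and 62.8, 23.1, 29.4 and 22.0 in the libraries labelled knockout (replicates 1 to 4), from 6 to 63 reads. Control replicate 1 was again the only control within the range of the other group. The log2 difference was 1.196, with 0.55 as its standard error (limma adjusted p = 0.140, exact permutation p = 0.143), and 1.67 without control replicate 1 (limma adjusted p = 0.0383).

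Phex, an X-linked gene (157162075 to 157415312, minus strand) whose endopeptidase product limits the phosphate-wasting hormone FGF23, had counts of 143, 6.06, 23.4 and 15.3 in control replicates 1 to 4. In knockout replicates 1 to 4 it had 49.9, 58.2, 35.9 and 14.1. The groups overlapped at both ends, with control replicate 1 above all other libraries and knockout replicate 4 below 3 of the 4 controls. The mean was 46.9 ± 64.3 in controls and 39.5 ± 19.3 under the knockout label, so the means and the log2 difference of 0.51 (SE 0.82, limma adjusted p = 0.680, exact permutation p = 0.686) differ in sign. Without control replicate 1 the log2 difference was 1.35 and still not called (limma adjusted p = 0.124).

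Sost, on chromosome 11 from 101962458 to 101967015 (minus strand), encodes the Wnt inhibitor sclerostin of mature osteocytes. Its counts were 16.2, 10.1, 21.5 and 30.7 in the controls (replicates 1 to 4) and 62.8, 27.4, 17.4 and 22.9 in the libraries labelled knockout (replicates 1 to 4), from 10 to 63 reads. The groups overlapped, and knockout replicate 1 alone exceeded every control. On the log2 scale it differed by 0.64 ± 0.45 (SE, limma adjusted p = 0.327, exact permutation p = 0.286). Unlike the other osteocyte genes it was not high in control replicate 1, and without that library the difference was 0.58 (limma adjusted p = 0.442). Sost divided by Dmp1 in the same library was 0.0345, 0.476, 0.217 and 0.308 in the controls (replicates 1 to 4) and 0.116, 0.103, 0.0563 and 0.0754 in the libraries labelled knockout (replicates 1 to 4). The lowest and the highest of these ratios were both in controls.

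The plot of differences with and without 1 control library sets these results side by side. Removal of control replicate 1 raised the difference for every member except Sost, and least for Col10a1, from 1.65 to 1.72. That library was singled out after its values were seen, so the 7 calls made without it are a description of how far 1 library sets the count.

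**Figure D4:**
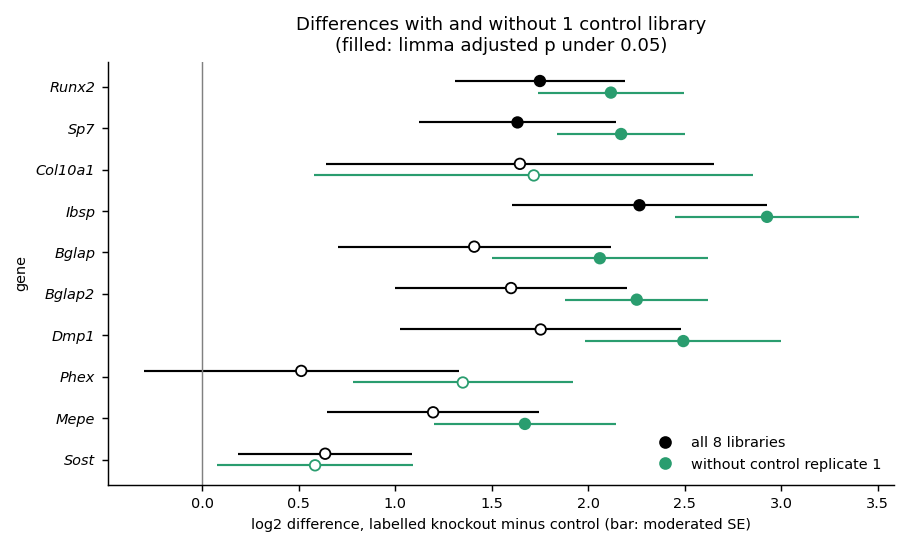
Log2 difference of each stage gene, libraries labelled knockout minus controls, with all 8 libraries (black) and without control replicate 1 (green); bars are the moderated standard errors and filled points passed the limma test at an adjusted p under 0.05. Filled points number 3 with all libraries and 7 without that control, and Col10a1, Phex and Sost are open in both.

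The summed osteocyte genes were set against the summed osteoblast matrix genes as a description. In every library Dmp1 was the largest term of the first sum and Ibsp of the second, so these genes weigh most in the ratio. The log2 ratio was -2.85, -3.41, -3.30 and -2.13 in the controls (replicates 1 to 4) and -3.63, -3.36, -3.49 and -3.78 in the libraries labelled knockout (replicates 1 to 4). Control replicates 1, 3 and 4 lay above every library labelled knockout, replicate 3 only just, and control replicate 2 lay within their range. Against Col1a1, the main collagen of bone, which fibroblasts also make, the ranges of the groups overlapped for 10 of 10 members. The log2 ratio of Runx2 to Col1a1 was -7.66 ± 0.22 in controls and -7.58 ± 0.30 under the knockout label, that of Sp7 was -7.27 ± 0.52 and -7.31 ± 0.26, and that of Dmp1 was -7.87 ± 1.08 and -7.79 ± 0.29. The group differences of these 3 genes relative to Col1a1 were 0.07, -0.04 and 0.08, smaller than the spread in either group. Ibsp stood highest by this measure, 0.59 above the controls, and Phex and Sost lowest, at -1.16 and -1.04, all within overlapping ranges. Col1a1 itself was 28784 ± 21107 in controls and 76510.4 ± 12926 under the knockout label, and was called higher (log2 difference 1.68, limma adjusted p = 0.0214). A member that rose as much as Col1a1 therefore shows no difference by this measure.

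Levels per kilobase of annotated exon ordered the members in a similar way in both groups. In the libraries labelled knockout the median normalised count per kilobase was 1816 for Ibsp, 1279 for Bglap, 1057 for Bglap2, 129 for Sp7, 111 for Dmp1, 74.7 for Col10a1, 42.8 for Runx2, 15.6 for Mepe, 12.2 for Sost and 6.82 for Phex. The ranges of neighbours in this order overlapped except between Bglap2 and Sp7, so of the steps between neighbours only that one exceeded the spread between libraries. Genes farther apart could be separated, as Runx2 (31.2 to 69.1) was from Sp7 (116 to 199) above it and from Phex (2.24 to 9.24) below it. Among controls Bglap (512) stood above Ibsp (323) and Sost (9.13) above Mepe (6.82), and every pair of neighbours overlapped. The exon length of Bglap includes a retained intron, so its level per kilobase depends on the annotation used.

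After group means were subtracted, the log2 values of the 45 pairs of members varied together to different degrees over the 8 libraries, as a description without a test, since all genes share the depth and tissue make-up of a library. Pearson's r was above 0.8 in 22 pairs, led by Sp7 with Dmp1 (0.987), Bglap2 with Phex (0.969) and Sp7 with Bglap2 (0.967). None of the 17 pairs with Col10a1 or Sost was among these 22, and the lowest value was that of Col10a1 with Phex (0.0900). Outside the members, the genes most like their mean by this measure were Hvcn1 (0.984), Bambi (0.983), Mmp13 (0.977), Kif21b (0.977) and Plcg2 (0.976). Those most like Runx2 were Cep250 (0.969), Ptprd (0.969), Plcg2 (0.966), Podnl1 (0.965) and Epha2 (0.963).

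Dmp1, Ibsp and Mepe are neighbours within a stretch of 238 kb of chromosome 5 that also holds Spp1, the osteopontin gene, all on the plus strand. The gaps are 85068 bases from Dmp1 to Ibsp, 13859 from Ibsp to Mepe and 96506 from Mepe to Spp1. Spp1 rose from 3210 ± 2033 to 11605 ± 4738 (log2 difference 2.02, SE 0.47, limma adjusted p = 0.0154), and was named for its position after its values were seen. Of the 4 neighbours, Ibsp and Spp1 were thus called, while Dmp1 and Mepe were not. Across all tested genes 11.6% were called higher and 23.2% in either direction.

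Promoter windows from RefSeq (GRCm38.p6, 250 bases before each annotated start) were found for 8 of the 10 members, in 9 windows, and not for Sp7 and Bglap2. They were searched on both strands for ACCACA, the core letters bound by RUNX factors. The letters were present in 4 of the 9 windows, against 14.05% of 32851 windows in all, and those 4 belong to Runx2, Bglap, Dmp1 and Mepe. The members were chosen by name, this count was not tested, and a match of letters does not show binding. The 4 windows are printed to show where the letters lie, with the matches in capitals, each written 5′ to 3′ on the strand of its gene. The windows are chr17:44814628-44814877 (minus) for Runx2, chr3:88384467-88384716 (minus) for Bglap, chr5:104202367-104202616 (plus) for Dmp1 and chr5:104325079-104325328 (plus) for Mepe.
Runx2: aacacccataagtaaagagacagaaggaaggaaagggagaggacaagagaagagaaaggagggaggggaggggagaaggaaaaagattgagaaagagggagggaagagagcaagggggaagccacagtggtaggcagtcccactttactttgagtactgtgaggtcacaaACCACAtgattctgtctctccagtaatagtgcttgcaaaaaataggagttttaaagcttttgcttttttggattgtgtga
Bglap: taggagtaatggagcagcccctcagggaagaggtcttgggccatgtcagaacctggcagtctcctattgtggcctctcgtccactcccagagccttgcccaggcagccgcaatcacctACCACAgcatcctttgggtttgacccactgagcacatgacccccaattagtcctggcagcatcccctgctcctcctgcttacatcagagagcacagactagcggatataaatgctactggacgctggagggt
Dmp1: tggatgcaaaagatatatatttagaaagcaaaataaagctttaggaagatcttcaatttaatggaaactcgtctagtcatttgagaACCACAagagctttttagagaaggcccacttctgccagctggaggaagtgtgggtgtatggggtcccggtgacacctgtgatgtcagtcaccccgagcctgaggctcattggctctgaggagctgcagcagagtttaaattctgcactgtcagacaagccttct
Mepe: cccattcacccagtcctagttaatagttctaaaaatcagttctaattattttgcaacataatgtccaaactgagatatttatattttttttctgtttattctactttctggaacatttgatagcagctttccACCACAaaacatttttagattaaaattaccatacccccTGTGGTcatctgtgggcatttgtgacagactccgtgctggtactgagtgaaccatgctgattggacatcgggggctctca

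Distances are from the RefSeq start, which for Runx2 lies inside the gene as annotated by GENCODE, so most of that window is within the coordinates given for Runx2. The first base of the match lies 80 bases before the start in Runx2, 132 in Bglap and 164 in Dmp1, and Mepe has one match at 118 and one on the opposite strand at 80. TATAAA, searched likewise, was in 4 of the 9 windows (Col10a1, Ibsp, Bglap and Mepe), against 12.4% of all. Of the 4 members with ACCACA 1 was called, and of the 4 with TATAAA 1 was called. Across all tested genes limma called 11.6% higher and 23.2% in either direction. Any link between these letters and the calls was not tested.

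Other genes of the same lineage were taken from lists. In the same fit, 11.6% of all tested genes were called higher and 23.2% in either direction. Of 9 tested bone transcription factors, 4 were called higher and 1 lower, with a median log2 difference of 1.001. Dlx5, a homeobox activator of Runx2 and Sp7, rose from 51.8 ± 26.6 to 169 ± 47.3 (log2 difference 1.76, limma adjusted p = 0.00833), and Twist1, a basic helix-loop-helix factor that restrains RUNX2, rose from 111 ± 47.9 to 306 ± 93.6 (1.49, limma adjusted p = 0.0141). Mef2c, a factor of hypertrophic cartilage, osteocytes and also muscle, fell from 11071 ± 925 to 7473 ± 507 (-0.57, limma adjusted p = 0.00613), a call that quantile normalisation did not keep (adjusted p = 0.0959). The skeletal muscle list had 4 of 12 genes called lower and 0 higher by limma, and by edgeR and DESeq2 it had 10 and 11 called. Of all 14949 tested genes, edgeR and DESeq2 called 3324 and 4125 in either direction. The part of muscle in the fall of Mef2c was not tested. Msx2 and Twist2 were too low to test.

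Of 10 tested osteoblast matrix and surface genes, 7 were called higher and 1 lower, with a median of 1.43. Over all tested genes, 11.6% were called higher and 23.2% in either direction. Omd, an osteoblast leucine-rich proteoglycan, rose from 65.0 ± 31.0 to 251 ± 154 (log2 difference 1.86, limma adjusted p = 0.0148), and Sparc, the collagen-binding protein osteonectin, rose from 16286 ± 7906 to 38796 ± 5245 (1.38, limma adjusted p = 0.0149). Omd overlaps Cenpp on the opposite strand in the annotation, so reads may be mixed. Phospho1, a phosphatase that starts mineral formation in matrix vesicles, fell from 195 ± 9.24 to 112 ± 17.6 (-0.81, limma adjusted p = 0.00656). It overlaps Zfp652 on the same strand and Abi3 on the opposite strand in the annotation, so reads may be mixed. All 12 skeletal muscle genes also had a difference below 0, and the part of muscle in the fall of Phospho1 was not tested. Among 9 tested genes of the wider osteocyte list 6 were called higher and 0 lower, with a median of 1.02. The osteocyte stage genes Dmp1, Phex, Mepe and Sost were not called. Which cells the transcripts of the wider list came from was not tested. Gja1, which encodes the gap junction protein connexin 43, rose from 601 ± 282 to 2872 ± 771 (2.35, limma adjusted p = 0.00397). Tnfsf11, the osteoclast-inducing ligand RANKL, rose from 8.46 ± 5.29 to 53.3 ± 25.8 (2.63, limma adjusted p = 0.00917). Capg, an actin-capping protein gene, rose from 753 ± 168 to 1517 ± 350.2 (1.01, limma adjusted p = 0.00746). Fgf23 and Dkk1 were too low to test.

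Of 4 tested genes of hypertrophic cartilage, 1 was called higher, against 11.6% of all tested genes called higher and 23.2% called in either direction. Mmp13, the collagenase of hypertrophic cartilage and osteoblasts, rose from 1220 ± 975 to 7645 ± 4004 (log2 difference 2.93, limma adjusted p = 0.00993). Panx3 was 31.8 ± 26.8 and 38.4 ± 19.7 (limma adjusted p = 0.604), and Vegfa was 5351 ± 501 and 4800 ± 1667 (limma adjusted p = 0.459). Neither these nor Col10a1 passed the test.

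**Figure D5:**
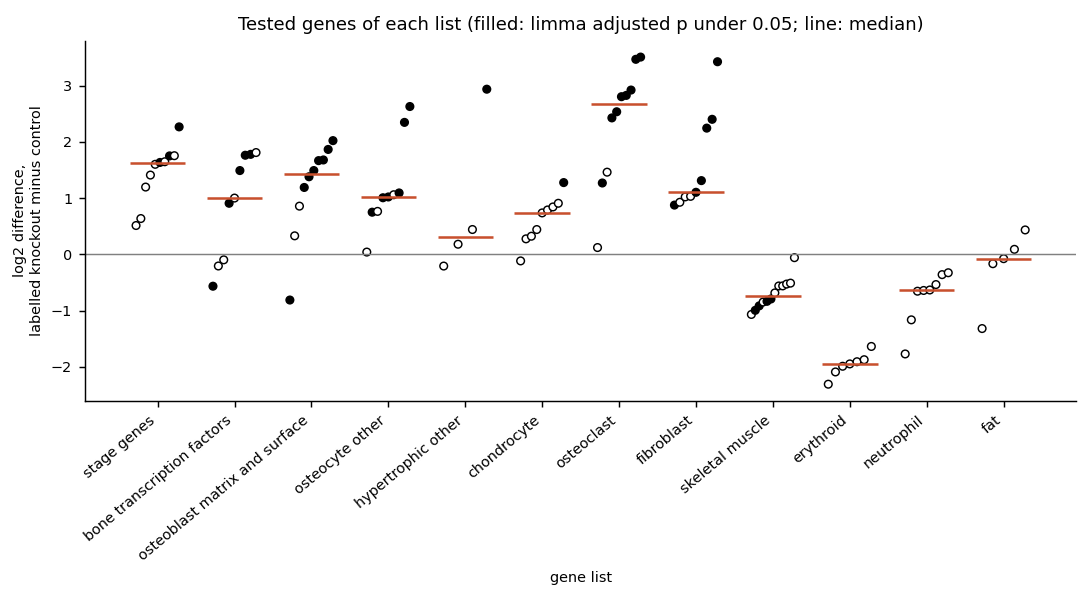
Log2 difference (libraries labelled knockout minus controls) of every tested gene of the stage genes, of 4 wider bone and cartilage lists and of 7 marker lists; filled points passed the limma test at an adjusted p under 0.05 and the line is the list's median. The stage genes have a median of 1.62, osteoclast markers 2.67 and erythroid markers -1.95.

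Marker lists of other cells were measured in the same contrast, where limma called 11.6% of all tested genes higher and 23.2% in either direction. Of 10 tested osteoclast markers 8 were called higher and 0 lower by limma (median 2.67), while edgeR and DESeq2 each called 4. Over all 14949 tested genes edgeR and DESeq2 called 3324 and 4125 in either direction. In 1 of the 10 every library labelled knockout lay above every control, close to the 11.7% of all tested genes. Their summed value was 15914, 3023, 3909 and 3287 in control replicates 1 to 4 and 11762 to 41924 in the libraries labelled knockout. Control replicate 1 was the highest control for this sum as well as for 8 of the 10 stage genes, and also for the summed chondrocyte (11373), neutrophil (5671) and fat markers (4922). Of 9 fibroblast markers 6 were called higher and 0 lower (summed values 24530 to 88617 and 82313 to 156300.2), and of 9 chondrocyte markers 1 was called higher and 0 lower (3732 to 11373 and 9362 to 13092). The 7 erythroid and 8 neutrophil markers had 0 calls by limma, edgeR or DESeq2. At an unadjusted limma p under 0.05 were 7 and 1 of them, against 5741 of all 14949 tested genes. Their summed values were 16755 to 98968 and 4040 to 42558 for the first and 1389 to 5671 and 1113 to 2707 for the second. Fat markers had 0 calls by limma and edgeR, 1 by DESeq2 and 0 at an unadjusted limma p under 0.05 (2659 to 4922 and 3188 to 4227). The 2 most abundant genes of each list were, with control and then knockout-labelled means, Ctsk (2166 ± 1842 and 11090 ± 5794) and Acp5 (1593 ± 2274 and 6996.5 ± 3482) for osteoclasts, both called higher (limma adjusted p = 0.0114 and 0.0239). For fibroblasts they were Col3a1 (15445 ± 15418 and 58886 ± 15031, called higher, limma adjusted p = 0.0167) and Prg4 (15739 ± 9440 and 29779 ± 9013). Those of chondrocytes were Comp (4358 ± 1862 and 7942 ± 2462.5) and Col11a2 (1429 ± 1664 and 1195 ± 321), and those of muscle Myh4 (584705 ± 71977 and 290798 ± 100838) and Acta1 (403793 ± 32480 and 253117 ± 42374). Hba-a1 (20778 ± 14887 and 8189 ± 8573) and Hbb-bs (18355 ± 13893 and 5893 ± 6202) led the erythroid list, S100a9 (912 ± 486 and 688 ± 355) and S100a8 (616 ± 356 and 459 ± 218) the neutrophil list, and Fabp4 (2614 ± 358 and 2369 ± 596) and Cfd (875 ± 412 and 1075 ± 145) the fat list. None of the last 6 genes, nor Prg4 or the chondrocyte and muscle genes named, was called by limma; Comp, Prg4 and Myh4 were close to the threshold (adjusted p = 0.0501, 0.0503 and 0.0521). No listed marker in the table was at 0 in all libraries. The part of these tissues in the differences of the stage genes was not tested.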

How the data were processed

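RNA of 8 knee joints was measured by poly-A sequencing. The deposited values are a signal, the gene count divided by a size factor of the library: per the labels, the authors aligned reads to mm10, counted them with featureCounts and normalised and filtered with DESeq2, and the submitters' processing notes also name HISAT2. Versions, annotation and strand setting are not given in the sources used here. All values were whole multiples of 1 step per library (within 0.01 of a read), which gave the recovered reads. Groups come from the sample titles, and 0 value columns were unmapped.

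Genes with at least 10 in at least 4 libraries were tested with limma 3.58.1 on log2(value + 1) with an intensity trend, with Benjamini-Hochberg adjustment over all 14949 genes, so fold changes of low genes are understated. edgeR 4.0.16 and DESeq2 1.42.0 were run on the recovered reads (100% of values whole) and called 3324 and 4125 genes, against 3461 by limma. Exact permutation tests used the 70 assignments of log2 values. The limma, edgeR and DESeq2 fits were first tested on simulated data. There 6 of 156 limma calls, 7 of 157 edgeR calls and 37 of 201 DESeq2 calls were false, so DESeq2 was the least strict in that simulation. In it 193 of 14686 genes were changed, far fewer than were called here, so these false shares need not hold here. Among the 10 stage genes DESeq2 called 1 and limma 3. Coordinates are from GENCODE M21. The members and lists were chosen with earlier results of these data known. Genes named are the members, Loxl2, the 3 tested genes of smallest p in each bone list, the 2 most abundant genes of each marker list and the 5 genes most alike in pattern to the members' mean and to Runx2. Col1a1 was set as a reference and Spp1 named for position. Matn1 and Ahsp were not used here.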

Additional observations from a re-analysis of the deposited data

Results flagged for a closer look

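Among 23 named genes, in 46 groups of 4 libraries, the highest or lowest library stood apart by more than Dixon's 95% critical value in 6 groups; chance flags about 1 in 20 groups. Among the stage genes these were Dmp1 in knockout replicate 1 (539.5 normalised reads, a gap of 0.843 of the range) and Phex in control replicate 1 (143, 0.873). Loxl2 was set apart in control replicate 3 (1135, 0.921). Control replicate 3 was also the lowest control for Mef2c (9696, 0.847) and Phospho1 (181, 0.925). Vegfa was set apart in knockout replicate 3 (7296, 0.933).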

How the results depend on the processing

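Over 17 alternatives (2 pseudocounts, no filter on low values, 3 scalings, edgeR, DESeq2, the replicate block and leaving out each library), 143 of 170 comparisons for the stage genes kept their direction and their side of the threshold, 20 lost a call, 4 gained one and 3 changed sign. The number of stage genes called, 3, was 1 with edgeR, 1 with DESeq2 and 0 to 7 when a library was left out. All 3 sign changes were in Phex, at -0.24 with edgeR, -0.24 with DESeq2 and -0.10 without control replicate 2, with 1.35 as its highest value when a library was left out. Vegfa was at 0.0719 under quantile normalisation. Of the wider bone lists, 20 of 32 tested genes were called, against 23.2% of all tested genes. When a library was left out, 13 to 21 of the 32 were called. The 3461 calls over all genes became 1751 to 3841 when a library was left out. The replicate block gave 2018 calls over all genes and 3 among the stage genes; same-numbered libraries had correlations of -0.233 to 0.213 and 2 of 8 libraries were closest to their own number, so the numbers were not taken as pairs. With scaling on the genes left without the muscle and blood cell lists and without the 50 most abundant genes, 77.8% of calls were higher, against 50.04%, the median of all genes moved to 0.15 and 3 stage genes were called. Depth limits Mepe, Phex and Sost, with as few as 6, 6 and 10 reads in a library. The cause of these changes was not tested.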
